A study of Mus musculus with 12 samples.

Results

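The sirtuins are a family of 7 enzymes encoded in the mouse by Sirt1 to Sirt7. Their genes were picked out by symbol in a table of 23420 genes, and all 7 were found there. Total RNA had been sequenced from monocytic myeloid-derived suppressor cells (M-MDSCs) of 12 mice, with a library for each mouse. The aged group held 6 mice of 24 months and the young group held 6 mice of 6 months and all mice were males of the strain C57BL/6JNIA. In both groups the cells were taken from bone marrow, which the labels place in the tibia, and sorted by flow cytometry as CD11b+Ly6G-Ly6Chi cells. The labels name no treatment or mutant allele in either group.

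Sirtuins remove acetyl and other acyl groups from lysines of proteins and consume NAD+ in the reaction, so that their activity is tied to the supply of this cofactor. Sirt1, Sirt6 and Sirt7 act mainly in the nucleus and Sirt2 mainly in the cytosol, while Sirt3, Sirt4 and Sirt5 reside in mitochondria. In myeloid cells they are known as brakes on inflammatory gene expression and as regulators of mitochondrial metabolism, and several of them have been studied in ageing. The comparison asked whether the transcripts of the family differed with age in M-MDSCs, and whether the 4 nuclear and cytosolic members behaved differently from the 3 mitochondrial ones. Enzyme protein and activity were not measured.

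Between 8737941 and 16300374 fragments per mouse were counted on genes in the aged group and between 4613239 and 9079237 in the young group. Transcript levels are in CPM (counts per 1000000, relative to library totals scaled with TMM, a trimmed mean that limits the weight of a few abundant genes), on which a count of 3 stood for 0.188 to 0.35 CPM in aged and 0.306 to 0.643 CPM in young mice. Genes were called at an adjusted p-value under 0.05 in the quasi-likelihood test of edgeR, and 4425 of 9742 genes tested, or 45.4%, were called between the ages. Short genes were on average higher and long genes lower in aged mice, with a Spearman correlation of -0.48 across genes between the log2 fold change and the exon length. The libraries also differed in cell type markers. All 8 macrophage markers were called higher in aged mice, with a summed level of 87.9 to 1110 CPM against 76.5 to 94 CPM, and the highest levels were in aged replicates 1 and 2. With limma-voom in place of edgeR 5 of them were called, and without those 2 aged mice 7 were called in edgeR. The 6 neutrophil markers summed to 66700 to 84100 CPM in aged and 54200 to 73900 CPM in young mice, although the sort selected Ly6G- cells, whereas the 7 monocyte markers summed to 4320 to 5250 and 4700 to 5130 CPM. Of the neutrophil markers 3 were called higher and none lower (50%). Of the monocyte markers Cd14 and Ly6c2 were called higher (log2 fold changes 1.11 and 0.54) and Itgam lower (-0.22), or 42.9%. When each library was corrected for its trend with gene length, no neutrophil marker was called and 1 monocyte marker was, higher. All 3 tested promyelocyte markers were higher in aged mice (4 markers summed to 9.06 to 16.5 against 3.13 to 8.46 CPM), and the only dendritic cell marker tested, Clec9a, was lower (6 markers summed to 0.749 to 2.33 against 3.12 to 7.74 CPM). The part of these markers in the sirtuin levels was not tested. The 8 proliferation genes summed to 404 to 905 CPM in aged and 723 to 1380 CPM in young mice, and young replicates 5 and 6 stood above the other young mice. Of these genes 3 were called lower and none higher (37.5% called), with a median log2 fold change of -0.08. Mki67 fell most, with 99.0 ± 39.2 CPM in aged and 398.5 ± 188 CPM in young mice. With the correction for gene length 1 of the 8 was called lower. In such bulk libraries, fewer cells of a type and less RNA per cell cannot be told apart.

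The DNA just before 3 sirtuin genes is shown, because Sirt1 was the member called between the ages and because Sirt2 and Sirt3 each start next to a gene that runs the other way and was itself called. The stretches were read from RefSeq sequence of the build GRCm38.p6, 5′ to 3′ on the strand of the sirtuin gene, and each ends at the last base before its start. Capitals mark matches on either strand to 3 kinds of letters. The GC box was searched as GGGCGG, to which factors of the Sp family can bind. The E-box was searched as CACGTG, which is known from the binding of Myc and of clock proteins. The CCAAT box was searched by the letters of its name, which are known from the binding of NF-Y. The first covers 250 bases on the minus strand (chr10:63339036-63339285), the second the 227 bases on the plus strand that separate the starts of Sirt2 and Nfkbib (chr7:28766525-28766751), and the third the 84 bases on the minus strand that separate the starts of Sirt3 and Psmd13 (chr7:140882310-140882393).
Sirt1: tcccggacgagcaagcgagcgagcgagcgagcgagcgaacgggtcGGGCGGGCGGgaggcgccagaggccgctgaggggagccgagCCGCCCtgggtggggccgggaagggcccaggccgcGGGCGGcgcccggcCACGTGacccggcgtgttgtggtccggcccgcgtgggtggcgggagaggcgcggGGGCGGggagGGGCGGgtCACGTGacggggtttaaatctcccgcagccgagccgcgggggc
Sirt2: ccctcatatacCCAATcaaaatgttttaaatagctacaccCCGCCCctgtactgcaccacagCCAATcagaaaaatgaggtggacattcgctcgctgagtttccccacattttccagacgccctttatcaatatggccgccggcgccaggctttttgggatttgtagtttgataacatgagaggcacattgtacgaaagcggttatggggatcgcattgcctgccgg
Sirt3: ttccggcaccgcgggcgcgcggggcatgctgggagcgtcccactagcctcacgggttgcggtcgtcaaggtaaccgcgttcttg

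The stretch before Sirt1 had a GC content of 79.2% with 39 CpG dinucleotides, and it held 5 runs of GC boxes and 2 E-boxes. An E-box was found in 6.02% and a GC box in 32.7% of 32851 RefSeq promoter windows of 250 bases. The stretch between Sirt2 and Nfkbib had a GC content of 49.3%, with 1 GC box and 2 CCAAT boxes, the latter found in 33.8% of the windows. Between Sirt3 and Psmd13 the GC content was 69% with 12 CpG dinucleotides, and none of these 3 kinds of letters occurred. Other motifs were searched in the same way and had no match in the 3 stretches. The motif of E2F factors was searched as TTTCGCG and was held by 0.703% of the windows. That of NRF1, a regulator of mitochondrial genes, was searched as GCATGCG and was held by 3.02%. The motif of the ETS family was searched as CCGGAAG and was held by 6.91% of all windows. FOXO factors, which sirtuins deacetylate, were represented by the letters GTAAACA, with matches in 3.17% of the windows. The TATA box was searched as TATAAA and found in 12.4%. These shares are over windows of 250 bases, and the printed stretches of Sirt2 and Sirt3 are shorter. The full window of 250 bases before Sirt2 held the same matches as its stretch, whereas that before Sirt3 also held 1 match to the ETS letters, which reaches 1 base beyond the printed stretch. A further RefSeq start of Sirt3, 440 bases inside the gene, had 3 GC boxes and 1 CCAAT box in its window. Such matches describe the letters only.

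To place the members against each other, CPM were divided by exon length in kilobases, and the mean levels in aged mice ran from 0.215 to 47.6 CPM per kilobase. Sirt7, a deacetylase of the nucleolus, was the most abundant with 47.6 ± 4.61 CPM per kilobase in aged and 49.2 ± 9.34 in young mice (mean ± SD, n = 6). It took 57.2% of the summed level of the family in aged and 58.2% in young mice, and its level stood at percentile 87.2 of the genes tested. Sirt2, which deacetylates tubulin, followed with 22.5 ± 1.90 CPM per kilobase in aged and 19.6 ± 1.71 in young mice, a share of 27% and 23.6% of the family.

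Sirt1, which deacetylates p53 and other transcription factors, had 6.15 ± 0.602 CPM per kilobase in aged and 7.59 ± 0.460 in young mice, and Sirt6, a histone deacylase and DNA repair factor, had 4.54 ± 0.778 and 4.86 ± 0.330. The mitochondrial members were the lowest of the family in both groups. Sirt3, the main mitochondrial deacetylase, had 1.32 ± 0.353 CPM per kilobase in aged and 1.59 ± 0.409 in young mice. Sirt5, which removes succinyl and malonyl groups, had 0.805 ± 0.249 and 0.824 ± 0.311, and Sirt4, an inhibitor of glutamate dehydrogenase, had 0.215 ± 0.106 and 0.321 ± 0.126. Sirt3 and Sirt5 stood at percentiles 13.9 and 7.26 of the genes tested.

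The order was Sirt7, Sirt2, Sirt1, Sirt6, Sirt3, Sirt5 and Sirt4 in both ages. Within a mouse, each member exceeded the next in the order in 6 of 6 aged and 6 of 6 young mice, apart from Sirt3 over Sirt5, which held in 5 of 6 aged mice. The closest neighbours were Sirt1 and Sirt6, with a ratio of 1.36 in aged and 1.56 in young mice. In one aged mouse the log2 difference between these neighbours was only 0.04, and their order is therefore not resolved in that animal. The steps from Sirt7 to Sirt2, from Sirt2 to Sirt1 and from Sirt6 to Sirt3 each had mean ratios of at least 2.12 in both ages.

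**Figure D1:**
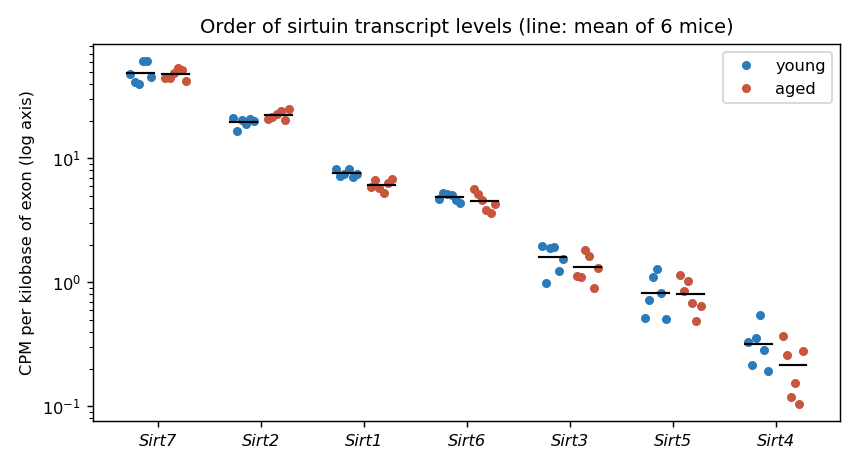
Levels of the 7 sirtuin transcripts in CPM per kilobase of exon on a log axis, with a point for each of 6 young (blue) and 6 aged (red) mice and a line at each mean. Sirt7 lies highest with means of 49.2 and 47.6 in young and aged mice, and the mitochondrial Sirt3, Sirt5 and Sirt4 lie lowest.

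Of the 6 sirtuin genes with enough counts to be tested, 1 was called between aged and young mice, against 45.4% of all genes tested. This was Sirt1, which was lower in aged mice (23% of all genes tested were called lower and 22.4% higher). The median log2 fold change of the 6 tested members was -0.08, against 0.01 over all genes tested. Members not called were not shown to be unchanged, and the intervals of their fold changes are given below.

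Sirt1 ranged in aged mice from 20.7 to 26.9 CPM with a median of 24.0. In young mice it ranged from 27.6 to 31.9 CPM with a median of 29.2. Every aged mouse thus lay below every young mouse, and 21.8% of all genes tested had ranges that did not overlap in either direction, 12.1% with all aged mice lower. The mean was 24.0 ± 2.35 CPM in aged and 29.7 ± 1.80 CPM in young mice, a decrease of 19% (log2 fold change -0.30, SE 0.08, 95% interval -0.48 to -0.13, adjusted p = 0.00777 in edgeR's quasi-likelihood test). Behind these levels stood 206 to 429 Sirt1 fragments in an aged library and 136 to 294 in a young one.

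Sirt1 has an exon length of 3910 bases, longer than 68.3% of the genes tested. When each library was corrected for its trend with gene length, the log2 fold change of Sirt1 was -0.21 and it was no longer called (adjusted p = 0.0607). It was also not called when the 3 aged mice numbered 24 to 26 in the alignment files were compared with the 6 young mice (log2 fold change -0.28, adjusted p = 0.0618), a comparison with fewer mice. The comparison of the same size with the 3 aged mice numbered 17 to 19 kept the call (log2 fold change -0.32, adjusted p = 0.0253). Sirt1 was called in 24 of 27 alternative settings. Without the 2 aged mice highest in macrophage markers it was still called, as it was without each mouse in turn, with log2 fold changes between -0.34 and -0.26.

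Sirt2 ranged in aged mice from 38.2 to 46.8 CPM with a median of 41.4. In young mice it ranged from 30.9 to 39.7 CPM with a median of 37.6. All 6 aged mice were above the young median and 4 of them above the highest young mouse, so that the groups overlapped in 2 aged mice, replicates 1 and 6. Its mean was 41.9 ± 3.54 CPM in aged and 36.6 ± 3.18 CPM in young mice (log2 fold change 0.19, SE 0.08, 95% interval 0.02 to 0.36), and the difference did not pass the test over all genes (adjusted p = 0.0612 in edgeR). It passed without aged replicate 6 (log2 fold change 0.22, adjusted p = 0.0482) and without the 2 aged mice highest in macrophage markers (0.24, adjusted p = 0.0492), and it shrank to 0.07 with the gene length correction.

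Sirt6 ranged from 7.76 to 12.2 CPM in aged mice with a median of 9.52. It ranged from 9.37 to 11.1 CPM in young mice with a median of 10.5. The young values lay within the span of the aged ones, where 1 mouse was above and 3 were below all young mice. The 3 aged mice with lower alignment numbers, replicates 1, 2 and 4, had 12.2, 10.96 and 9.84 CPM, all above the 8.23, 7.76 and 9.21 CPM of replicates 5, 6 and 7, a split that was noticed in the values and not tested. The log2 fold change of Sirt6 was -0.10 (95% interval -0.35 to 0.16, adjusted p = 0.526).

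Sirt7 ranged from 72.5 to 91.9 CPM in aged mice with a median of 80.4. It ranged from 68.2 to 104.5 CPM in young mice with a median of 79.4. The groups overlapped widely, and the highest values, 103.8 and 104.5 CPM, belonged to young replicates 5 and 6, the same libraries that had the highest summed proliferation genes (1380 and 1340 CPM against 723 to 891 CPM in the other young mice). The part of that difference in the Sirt7 level was not tested. The log2 fold change of Sirt7 was -0.05 (95% interval -0.29 to 0.18, adjusted p = 0.719), and it was 0.01 without young replicate 5 and 0.02 without young replicate 6.

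**Figure D2:**
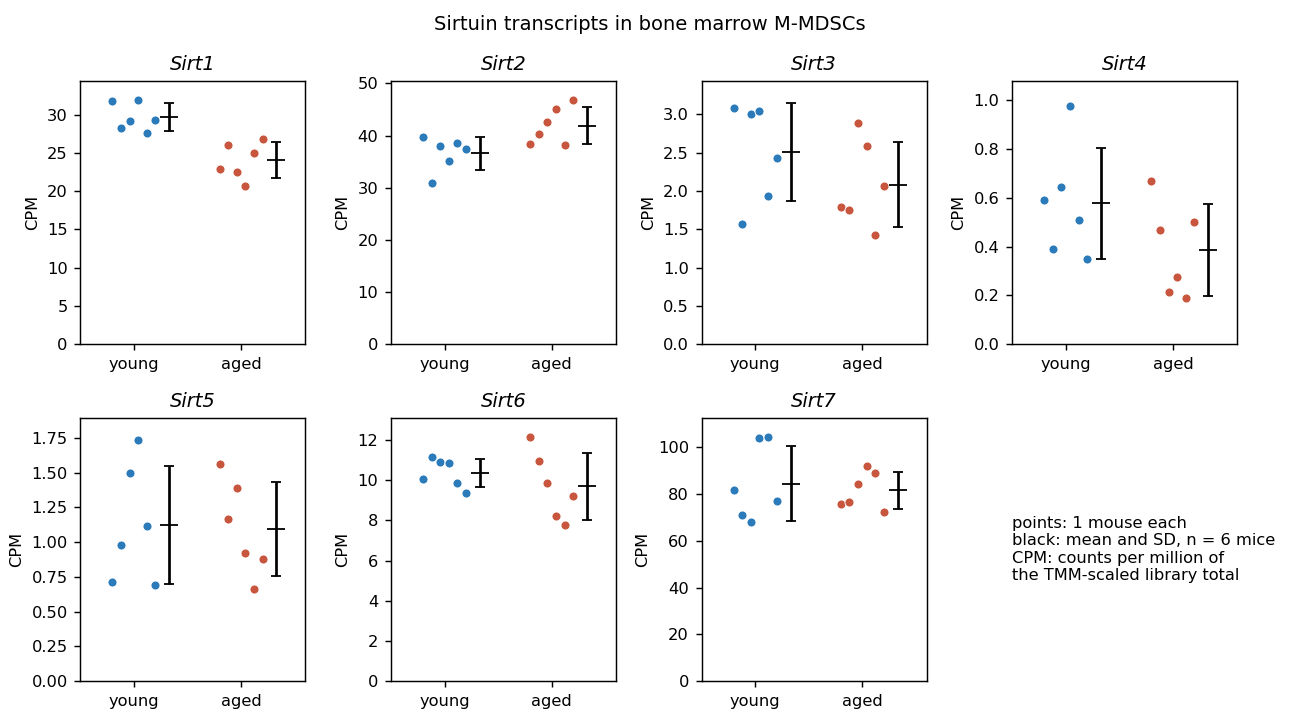
Levels of the 7 sirtuin transcripts in CPM, each panel on its own linear axis from 0, with a point for each mouse and the mean and SD of 6 young and 6 aged mice in black. The ages are separated for Sirt1, with aged mice at 20.7 to 26.9 CPM and young mice at 27.6 to 31.9 CPM, and they overlap for the other 6 members.

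Among the mitochondrial members, Sirt3 ranged from 1.42 to 2.89 CPM in aged mice with a median of 1.93. It ranged from 1.56 to 3.08 CPM in young mice with a median of 2.71. Only 1 aged mouse lay above the young median and 1 below the lowest young mouse, and the groups overlapped. Each value stood on few fragments, 15 to 33 in an aged and 8 to 28 in a young library. The log2 fold change of -0.27 had a 95% interval from -0.76 to 0.22 (adjusted p = 0.353), and its lower end stands for a level in aged mice of 0.59 of that in young mice, which the interval does not exclude.

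Sirt5 ranged from 0.663 to 1.56 CPM in aged mice with a median of 1.05. It ranged from 0.694 to 1.74 CPM in young mice with a median of 1.05. The ages overlapped almost completely, and a library held 7 to 14 Sirt5 fragments in the aged and 5 to 16 in the young group. The log2 fold change was -0.05 with a 95% interval from -0.69 to 0.60 (adjusted p = 0.913), the widest interval of the family.

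Sirt4 had too few counts to enter the test, between 2 and 8 in an aged and between 2 and 9 in a young library. Its level ranged from 0.189 to 0.669 CPM in aged mice with a median of 0.372, and from 0.347 to 0.977 CPM in young mice with a median of 0.551. The lowest 3 values were those of aged mice and the highest was that of a young mouse, yet the groups overlapped. The means differed by -0.19 CPM (aged minus young), with p = 0.145 in an exact two-sided permutation test over the 12 mice, in which 0.00216 is the smallest p that can be reached.

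The gene length correction moved the members in different ways. It brought the log2 fold changes of Sirt1 and Sirt2 nearer to 0, to -0.21 and 0.07, and it took those of Sirt3, Sirt5, Sirt6 and Sirt7 farther from 0, to -0.44, -0.27, -0.18 and -0.21. No sirtuin was called with this correction, and 5 of the 6 tested members then had negative values.

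Counting error limits the mitochondrial members more than the nuclear and cytosolic ones. In simulated counts with the means and library sizes of these mice, 56% of genes changed by 0.5 on the log2 scale and 84% of those changed by 1 were called, over genes of all levels. Far fewer genes were changed in the simulation than were called between the ages, which makes its adjusted threshold stricter. These shares therefore do not give the chance of a call in the mice, nor that for members with few counts.

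**Figure D3:**
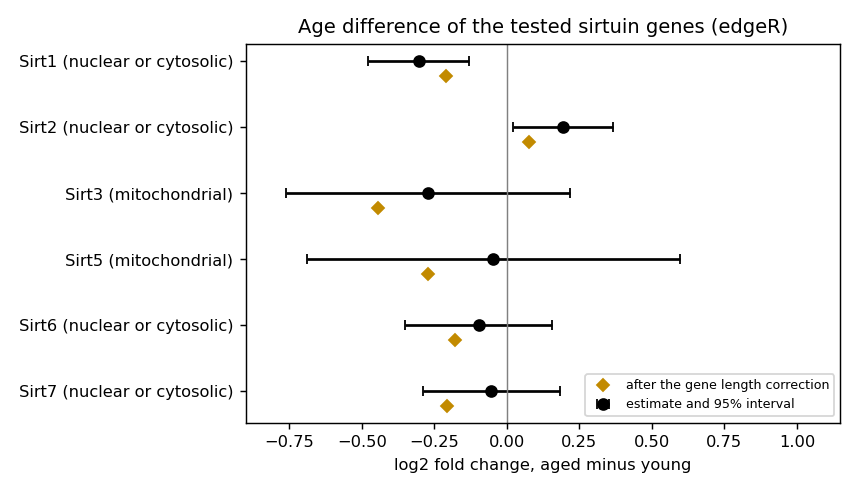
Log2 fold change (aged minus young) of the 6 tested sirtuin genes, with circles for the edgeR estimate, bars for its 95% interval and diamonds for the estimate after the gene length correction. The interval of Sirt1 runs from -0.48 to -0.13 and that of Sirt5 from -0.69 to 0.60, and the diamonds of Sirt1 and Sirt2 lie nearer to 0 than their circles while those of Sirt3, Sirt5, Sirt6 and Sirt7 lie farther below 0.

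The nuclear and cytosolic members were then set against the mitochondrial ones. The median log2 fold change was -0.08 over the 4 nuclear and cytosolic members and -0.16 over the 2 mitochondrial members tested, a difference of 0.08 with no test, since the groups hold so few genes. Its direction was not stable, as it was -8e-04 without aged replicate 6, -0.0096 without young replicate 5, 0.0059 without young replicate 2, -0.03 with the GC correction and -0.04 with only the aged mice before the gap in alignment numbers. In each mouse, the CPM per kilobase of Sirt1, Sirt2, Sirt6 and Sirt7 were summed and divided by the sum of Sirt3, Sirt4 and Sirt5. This ratio was 36.2 ± 9.93 in aged mice, from 27.7 to 55.3 with a median of 35.1. In young mice it was 31.1 ± 7.12, from 21.6 to 40.0 with a median of 31.7. Of the 6 aged mice, 5 lay within the young range, and the value of 55.3 in aged replicate 6 stood apart.

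The nuclear and cytosolic sum was 80.8 ± 3.86 CPM per kilobase in aged and 81.3 ± 9.85 in young mice, and the mitochondrial sum was 2.34 ± 0.501 and 2.74 ± 0.704. The sum of the whole family was 83.1 ± 3.87 in aged and 84.0 ± 10.1 in young mice. The family sums of the ages differed by less than the SD of either group, and the mitochondrial sum rested on 24 to 55 counts per aged and 15 to 53 per young mouse.

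Because Sirt1 and Sirt2 had fold changes of opposite sign, their counts were also compared within each library, where library scaling has no part. The ratio of Sirt2 to Sirt1 counts in aged replicates 1, 2, 4, 5, 6 and 7 was 1.67, 1.54, 1.89, 2.17, 1.53 and 1.74. In young replicates 1, 2, 5, 6, 9 and 10 it was 1.09, 1.3, 1.1, 1.4, 1.28 and 1.25. Every aged mouse lay above every young mouse. Among the 21 pairs of sirtuin genes this was the only pair without overlap, or 1 of the 15 pairs of tested members (6.67%), whereas 18.1% of all pairs of tested genes had ratios that did not overlap between the ages.

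This separation was lost with a correction for gene length, in which Sirt1 has 3910 exon bases and Sirt2 has 1863. After subtraction of each library's trend with length, the mean log2 ratio differed by 0.285 between the ages in place of 0.502, and 3 of 6 aged mice remained above all young mice.

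**Figure D4:**
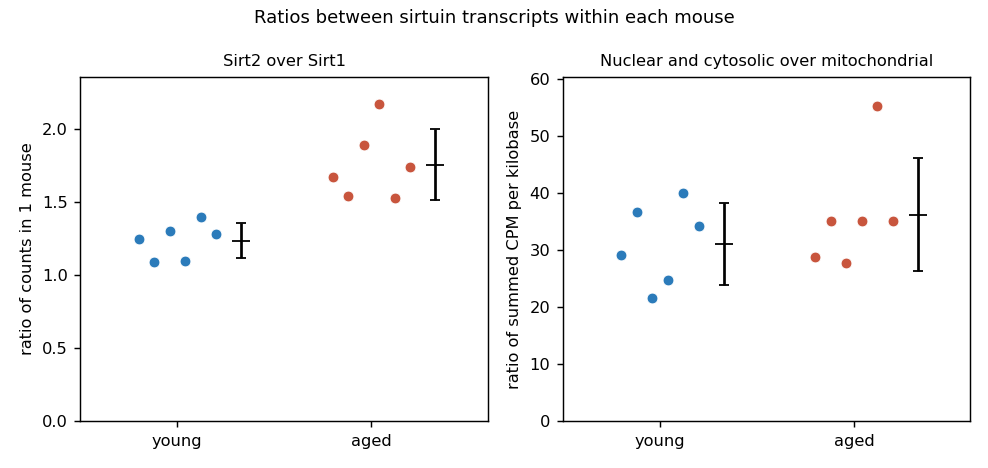
Ratio of Sirt2 to Sirt1 counts (left) and ratio of the summed nuclear and cytosolic to the summed mitochondrial sirtuin level in CPM per kilobase (right), with a point for each mouse and the mean and SD of 6 mice per age in black. The left ratio is 1.53 to 2.17 in aged and 1.09 to 1.4 in young mice without length correction, while the right one overlaps, with aged replicate 6 highest at 55.3.

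The sirtuin genes lie on chromosomes 5, 7, 10, 11 and 13 of mm10, and some are crowded by other genes. Sirt1 spans chr10:63319005-63339035 on the minus strand, and Herc4 on the other strand ends 1123 bases from its end, with a log2 fold change of -0.15 that was not called (adjusted p = 0.124). Sirt2 spans chr7:28766752-28788665 on the plus strand. Nfkbib, an inhibitor of NF-kB, starts 227 bases away in the opposite direction, on the far side of the stretch printed above, and was higher in aged mice (log2 fold change 0.38, adjusted p = 0.00562).

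An antisense gene nested in Sirt2, Gm19897, shares 149 exon bases with it and was lower in aged mice (log2 fold change -0.37, adjusted p = 0.0156). Rinl, 303 bases beyond the end of Sirt2 on the same strand, was lower as well (-0.28, adjusted p = 0.0469), although it was called in only 9 of 27 alternative settings. Both neighbours of Sirt2 that run antisense were thus called, in opposite directions, while Sirt2 itself was not.

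Sirt3 spans chr7:140863663-140882309 on the minus strand. Psmd13, a proteasome subunit that starts 84 bases away on the other strand, was at 70.8 ± 6.41 CPM in aged and 45.6 ± 7.56 CPM in young mice (log2 fold change 0.64, adjusted p = 3.42e-04). Its ranges did not overlap, from 61.9 to 79.5 CPM in aged and from 34.8 to 52.4 CPM in young mice, whereas Sirt3 on the other side of that stretch had a negative fold change that was not called. Ric8 overlaps the end of Sirt3 by 69 exon bases on the opposite strand and was higher in aged mice (log2 fold change 0.34, adjusted p = 0.00567). Fragments were counted by strand, so that reads of Ric8 or Gm19897 were kept apart from those of the sirtuins as far as the library preparation preserved strand.

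Sirt4 spans chr5:115478010-115484484 on the minus strand and Sirt5 spans chr13:43370716-43395203 on the plus strand, and neither had another gene of the table within 2000 bases. Sirt6 spans chr10:81621786-81627608 on the minus strand, and Ankrd24, which starts 931 bases away, had 0 to 6 counts per mouse and was not tested. Sirt7 spans chr11:120618372-120625002 on the minus strand. Pcyt2, 481 bases beyond its end on the same strand, makes a precursor of phosphatidylethanolamine and was lower in aged mice (log2 fold change -0.80, adjusted p = 0.0216). It was not called without young replicate 5 or 6 (-0.68 and -0.66, adjusted p = 0.059 and 0.0604).

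The genes whose pattern over the 12 mice was most like that of each sirtuin were found by the root mean square difference of centred log2 CPM, which is a description. Mice of both ages entered this choice, so a like age difference is built into it. For Sirt1 they were Gtf3c1 and Tlk2, with differences of 0.08 each against a median of 0.32 over all genes, and both were lower in aged mice (log2 fold changes -0.35 and -0.36, adjusted p = 0.00103 and 0.00252). For Sirt2 they were Dld and Mlst8 (0.07 each), for Sirt6 Timm44 and Prpf4 (0.09 and 0.10) and for Sirt7 Otud5 and Cyb5r1 (0.06 and 0.08), none of which was called. The patterns of the low members were less well matched, with 0.20 and 0.21 for Rnf8 and Zkscan5 beside Sirt3 and 0.23 each for 2510002D24Rik and Wdr91 beside Sirt5. With the gene length correction Gtf3c1 (-0.05) and Tlk2 (-0.15) were no longer called.

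Genes known to control sirtuins, mainly Sirt1, were examined as a list. Of 9 tested regulators, 1 was higher, 3 were lower and 5 were not called, or 44.4% called, close to the share over all genes. Usp22, a deubiquitinase that stabilizes Sirt1, was higher in aged mice (133.9 ± 16.4 against 101.1 ± 12.2 CPM, log2 fold change 0.41, adjusted p = 0.00312). The kinase Mapk8, which phosphorylates Sirt1, and the ubiquitin ligase Smurf2 were lower (-0.44 and -0.38, adjusted p = 0.005 and 4.66e-04), and so was the SUMO protease Senp1, a gene named here after its values were seen (-0.36, adjusted p = 0.0085). Rps19bp1, an activator of Sirt1, had 2.07 ± 0.323 CPM in aged and 1.62 ± 0.409 CPM in young mice and was not called (log2 fold change 0.40, adjusted p = 0.132). With the gene length correction Mapk8 (-0.21, adjusted p = 0.14) and Senp1 (-0.09, adjusted p = 0.472) were no longer called, and Smurf2 had -0.19 (adjusted p = 0.0473). Neither Mapk8 nor Senp1 was called with only the aged mice after the gap (adjusted p = 0.0648 and 0.141). The median of the list had no stable sign, at -0.11 in edgeR as described, 0.01 with the length correction (2 genes higher and 1 lower), and 0.09 in DESeq2 and 0.08 without a filter, each over 11 genes.

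The supply of NAD+ was covered by 8 tested genes, of which 3 were higher and 3 lower in aged mice (75% called, against 45.4% of all genes tested), with a median log2 fold change of -0.09. Nampt, the rate-limiting enzyme of the salvage pathway that regenerates NAD+ from nicotinamide, was at 199.5 ± 29.6 CPM in aged and 156.2 ± 28.2 CPM in young mice (log2 fold change 0.36, adjusted p = 0.0273), but it was not called without aged replicate 5 or 6 or young replicate 5 or 6, with adjusted p-values of 0.0581 to 0.0629. Qprt, which feeds the route from tryptophan, was lower (0.462 to 2.01 CPM in aged and 1.56 CPM or more in young mice, log2 fold change -1.74, adjusted p = 0.00202). Neither the share nor the direction of this list was stable. Without aged replicate 2 there were 2 higher and 1 lower, without young replicate 5 or 6 there was 1 higher and 2 were lower, and without TMM factors 2 were higher and 4 lower. Without aged replicate 4, aged replicate 5, young replicate 1 or young replicate 9, 2 were higher and 2 lower, and without aged replicate 6, 1 was higher and 3 lower.

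Among 7 tested enzymes that compete with sirtuins for NAD+, 2 were higher and 2 lower (57.1% called, against 45.4% of all genes tested), with a median of -0.19. Cd38, the NAD+ glycohydrolase of the cell surface, was at 29.7 ± 5.80 CPM in aged and 4.09 ± 0.792 CPM in young mice (log2 fold change 2.88, adjusted p = 8.18e-08) and was called in all 27 alternative settings. Its aged range of 22.6 to 39.2 CPM lay far from the young range of 3.15 to 5.14 CPM. Tnks, a tankyrase that uses NAD+ to build poly(ADP-ribose), was lower in aged mice (-0.47, adjusted p = 1.23e-04). With the gene length correction Tnks had a log2 fold change of -0.19 (adjusted p = 0.0314), 3 of these enzymes were higher and 1 was lower, and their median was 0.06. That median rested on single mice, at 0.0053 without young replicate 5, -0.04 without aged replicate 5, -0.06 without young replicate 6, -0.08 without aged replicate 4 and -0.09 without aged replicate 6, while 2 were higher and 2 lower in each of these fits. The age difference of Sirt1 in CPM was thus small beside that of Cd38 and opposite to it.

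Known protein targets of the sirtuins were divided in the same way as the enzymes. Of 22 tested targets of nuclear and cytosolic sirtuins, 2 were higher and 6 lower in aged mice, 36.4% called, with a median log2 fold change of -0.13. Over all genes tested 45.4% were called, 22.4% higher and 23% lower. The split between higher and lower targets varied with the scaling, with 2 higher and 7 lower without TMM factors, 4 higher and 4 lower under upper quartile factors and 3 higher and 4 lower with the gene length correction. Without young replicate 10 there were 4 in each direction. G6pdx, the first enzyme of the pentose phosphate pathway and a target of Sirt2, was higher (0.53, adjusted p = 8.65e-04), whereas the clock gene Per2 (-0.77, adjusted p = 2.25e-04) and the acetyltransferase gene Ep300 (-0.62, adjusted p = 2.94e-05) were lower. With the gene length correction Ep300 had a log2 fold change of -0.20 (adjusted p = 0.0438).

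Of 26 tested targets of mitochondrial sirtuins, 12 were higher and 1 lower, 50% called against 45.4% of all genes tested, with a median of 0.37 against 0.01 over all genes. Mrpl10, a mitochondrial ribosomal protein, was at 49.0 ± 4.15 CPM in aged and 34.3 ± 4.01 CPM in young mice (0.52, adjusted p = 4.27e-04), and the ATP synthase subunit gene Atp5o had a log2 fold change of 0.69 (adjusted p = 0.00205). The lower member was Opa1, which fuses inner membranes (-0.23, adjusted p = 0.0329), and it was called in 6 of the 12 fits that left out a mouse. With the gene length correction 8 were higher and none lower, the median was 0.24, Opa1 had a log2 fold change of 0.02 and Atp5o was no longer called (0.28, adjusted p = 0.0549). Sirt3 and Sirt5 themselves were not called, and the sign of Sirt5 turned in 6 of 25 alternative settings.

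Further enzyme families also remove or add acetyl groups. Among 10 tested zinc-dependent deacetylases, which need no NAD+, none was higher and 2 were lower in aged mice (20% called, against 45.4% of all genes tested), with a median log2 fold change of -0.08. The lower ones were Hdac8 (-0.94, adjusted p = 0.0195), with 1.47 ± 0.507 CPM in aged and 2.79 ± 1.19 CPM in young mice, and Hdac10 (-0.59, adjusted p = 0.0487), which is named after its values were seen. Neither was called when the aged mice from only one side of the gap in alignment numbers were used, and Hdac8 was not called without young replicate 9 (adjusted p = 0.0578). Hdac10 lost its call in 7 of the 12 fits that left out a mouse, namely aged replicate 1, 2, 4, 5 or 7 or young replicate 5 or 6. At an unadjusted p under 0.05, 1 deacetylase, Hdac3, was higher (0.20, adjusted p = 0.0524), and it was called in 7 of 27 alternative settings, among them upper quartile factors (adjusted p = 0.0254) and the GC correction (0.0261) but not DESeq2 (0.0639). Among 11 lysine acetyltransferases, 6 were lower and none was higher (54.5% called, against 45.4% of all genes tested in either direction and 23% lower), with a median of -0.40. Kat6a had a log2 fold change of -0.70 (adjusted p = 6.64e-06), with 164.3 to 210.1 CPM in aged and 285.8 to 322.1 CPM in young mice. Atat1, which acetylates the tubulin that Sirt2 deacetylates, had one of -0.89 (adjusted p = 0.0198), and was not called without young replicate 5 or 6 (adjusted p = 0.0625 and 0.0598). No acetyltransferase was higher at an unadjusted p under 0.05 or in DESeq2. With the gene length correction 4 acetyltransferases were lower and 1 was higher, the median was -0.20 and Kat6a had a log2 fold change of -0.25 (adjusted p = 0.0109). The lists overlap, since Ep300, Kat5 and Kat8 are also counted as sirtuin targets.

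**Figure D5:**
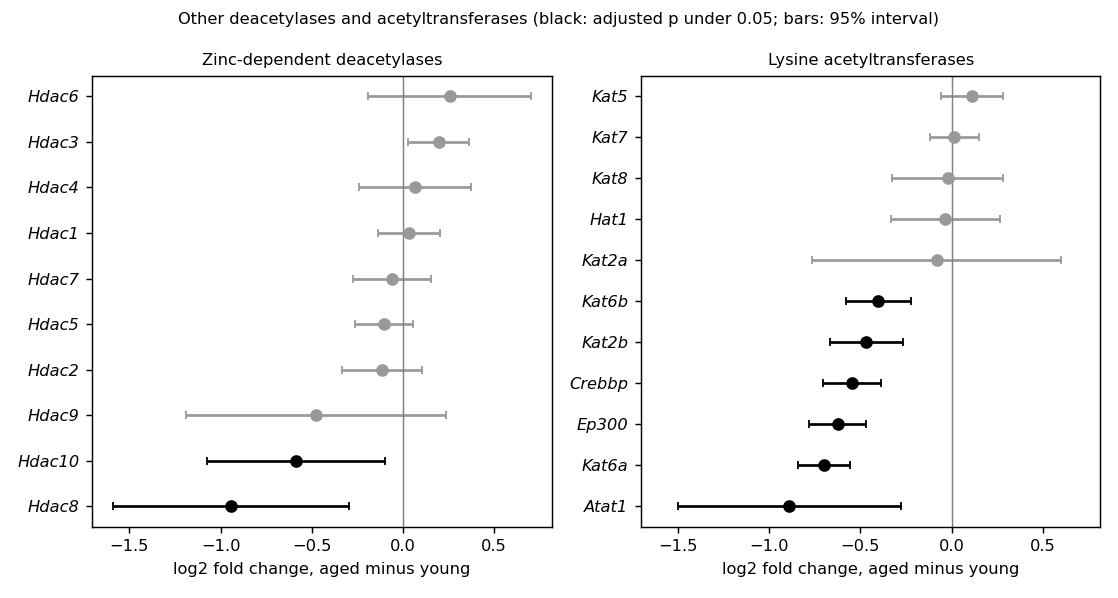
Log2 fold change (aged minus young) with 95% intervals for 10 zinc-dependent deacetylases (left) and 11 lysine acetyltransferases (right), in black where the adjusted p-value of edgeR was under 0.05. The 2 black deacetylases, Hdac8 and Hdac10, and the 6 black acetyltransferases all lie below 0.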

How the data were processed

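RNA of sorted M-MDSCs from 6 aged and 6 young mice was prepared with a stranded TruSeq kit and sequenced in pairs on a NovaSeq instrument. The deposited values are raw counts of fragments per gene, which the authors made with featureCounts 2.0.0 on the exons of a UCSC annotation of mm10. Per the file headers, they required both ends on 1 chromosome, a mapping quality of at least 60 and the reverse strand. The aligner is not given in the sources used here. Columns were matched to mice by name, and none was left unused. The deposited exon length of each gene was used for levels per kilobase.

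Counts were fitted here with edgeR 4.0.16 in R 4.3.3, with genes kept by filterByExpr, TMM factors, the quasi-likelihood test and Benjamini-Hochberg adjustment over 9742 genes. The biological coefficient of variation was 15.7%. No 2 libraries of an age agreed within sampling noise (smallest chi-square per gene 1.68). The scripts were tested on simulated counts, where 0.115% of unchanged genes were called. The study compared the ages with DESeq2. Alternatives were DESeq2 1.42.0, limma-voom (limma 3.58.1), other scaling and filters, corrections for gene length and GC content (from GENCODE transcripts for 94.4% of genes tested), thinning to 4613239 counts, the aged mice on either side of the gap in alignment numbers, each mouse left out and a replicate block. Fits without the shallowest young mice or the aged mice highest in macrophage markers, the numbered mice without a block, the ratio after the length trend and list counts by setting were added after the values were seen.

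The members and lists were chosen with earlier results of these data known. Named were all members, and the largest called rise, largest called fall and smallest p-value of each list other than the marker and proliferation lists. Also named were Ccar2, Rps19bp1, Cd38 and Nampt, genes within 2000 bases of a member, and the 2 genes most like each tested member. Marker and proliferation genes that the text names fell outside this rule. Of 182 list symbols 181 were found, and Ccar2 had no match. Nmrk2, Cps1 and Hba-a1 had no count. Lists of B and plasma, T and NK, erythroid, basophil, megakaryocyte and stromal or endothelial markers each summed to at most 90.1 CPM in any mouse, the highest being the stromal list (8.46 to 90.1 CPM in aged, 6.82 to 15.4 CPM in young mice, with 1 of 2 tested markers called higher). All alignment numbers of young mice (11 to 16) precede those of aged mice (17 to 19 and 24 to 26), so that a change of preparation between them and age cannot be told apart.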

Additional observations from a re-analysis of the deposited data

Results flagged for a closer look

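The log2 ratio of the summed nuclear and cytosolic to the summed mitochondrial sirtuin level was 5.79 in aged replicate 6, far from the other 5 aged mice, of which the nearest was at 5.14. The gap made up 0.655 of the range of the group, above Dixon's critical value for 6 samples. The mitochondrial sum of this mouse rested on 24 counts, the fewest among the aged mice. Among 16 groups of values examined it was the only one flagged, and chance flags about 1 in 20.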

How the results depend on the processing

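The number of sirtuin genes called was 1 (Sirt1). It was 2, with Sirt2 added, with upper quartile factors (log2 fold change 0.23), with a minimum of 10 counts in every mouse (0.20) and without the 2 aged mice highest in macrophage genes, and 1 to 2 when a mouse was left out. It was 0 with the gene length correction, with the aged mice after the gap and with the replicate block. In the blocked fit, on the 8 mice whose numbers occur in both ages, Sirt1 had -0.32 (adjusted p = 0.0799), against an adjusted p of 0.0286 in the same mice without the block. Deviations of same-numbered mice correlated at -0.246 to -0.065 and 0 of 4 correlated best with their own number, so the numbers were not taken as pairs. Sirt1 was called in 24 of 27 settings and Sirt2 in 4. Over all genes, 3014 to 4750 were called, and 37.8% of calls were higher in aged mice without TMM factors against 49.4% with them. The compartment difference ranged from -0.04 to 0.28, with no value at the minimum of 10 counts, and the order of levels was the same without division by exon length and without each mouse, the settings in which it was examined. Of 1124 values of 42 named genes, 1012 kept direction and call and 27 turned direction, 1 of them from a called value, Opa1 (0.0173 with length correction). The others were Zkscan5 (3e-04 with upper quartile factors, 0.0503 length, 0.0386 block, 0.0367 numbered mice, 0.0454 macrophage), Prpf4 (0.124 length, 0.0388 thinned, 0.0888 before the gap), Sirt5 (0.30 before the gap, 0.008 without the shallowest young mice), Sirt6 (0.0856 before the gap), Wdr91 (0.0825 before the gap) and Sirt7 (0.0055 after the gap, 0.0013 macrophage). Leaving out a mouse gave -0.17 to 0.15 for Sirt5, -0.11 to 0.0165 for Sirt7, -0.0736 to 0.0355 for Otud5, -0.0938 to 0.0526 for Zkscan5, -0.29 to 0.0042 for 2510002D24Rik and -0.15 to 0.0114 for Cyb5r1. The cause was not tested. Depth limits Sirt3, Sirt4 and Sirt5, with at most 33 counts per mouse.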
